A study of Mus musculus with 8 samples.

Results

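The 6 miRNAs described here, mmu-miR-221-3p, mmu-miR-222-3p, mmu-miR-132-3p, mmu-miR-212-3p, mmu-miR-31-5p and mmu-miR-34a-5p (below without the mouse prefix), are known from T cell activation and were chosen by name, 6 of the 1978 mature miRNA names in the deposited table. Other activation miRNAs such as miR-146, miR-155 and miR-21 are not among them. Small RNA of sorted CD8+ T cells from the spleens of mice was sequenced in 4 groups of 2 libraries, titled mCre MP, mCre TN, WT MP and WT TN. Of these names mCre and WT are genotypes and MP and TN are sorted subsets; where the titles have MP the design text has VM, an abbreviation commonly used for virtual memory, memory-like cells that have not met antigen, and TN commonly means true naive. In the title of the series miR-29 stands with Cre, the recombinase used to cut marked DNA out of a genome. The labels used here name neither the deleted sequence nor the promoter of Cre, nor the age of each sample. Nothing in the labels ties the 2 libraries of a group to different animals, and p-values then measure only the spread between libraries, which may be technical.

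A miRNA is cut from a hairpin as a duplex of a 5p and a 3p arm, one of which is usually loaded into Argonaute and pairs with target mRNAs through its seed, bases 2 to 8. The miR-221 and miR-222 hairpins share a primary transcript on the X chromosome, are induced when T cells are stimulated, and repress the cell cycle inhibitor Cdkn1b and the receptor Kit. The miR-132 and miR-212 hairpins share another, which the transcription factor CREB activates in neurons. miR-31 is induced through T cell receptor signals, and miR-34a is a target of the transcription factor p53.

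The mature sequences show which of the 6 can share targets, with the seed in capitals (RefSeq, GRCm38.p6, 5′ to 3′):
miR-221-3p: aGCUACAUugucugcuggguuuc
miR-222-3p: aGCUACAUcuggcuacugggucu
miR-132-3p: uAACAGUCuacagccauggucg
miR-212-3p: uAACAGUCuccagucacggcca
miR-31-5p: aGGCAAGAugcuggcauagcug
miR-34a-5p: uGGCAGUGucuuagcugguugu
miR-221-3p and miR-222-3p share their first 8 bases and then only 3 of 15 positions, so reads of one are readily told from reads of the other. miR-132-3p and miR-212-3p are closer, with 17 of 22 positions identical and the first 9 shared. The seeds of miR-31-5p and miR-34a-5p differ from these and from each other.

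The hairpins of the X-linked pair are shown because the results turn on their arms, with the 3p member in capitals:
Mir221: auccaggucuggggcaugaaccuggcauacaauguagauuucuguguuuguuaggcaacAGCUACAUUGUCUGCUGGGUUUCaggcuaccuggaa
Mir222: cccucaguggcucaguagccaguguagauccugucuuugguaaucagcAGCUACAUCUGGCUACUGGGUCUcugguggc
In GRCm38, Mir221 lies on chromosome X at 19146294 to 19146388 and Mir222 at 19146893 to 19146971, both on the minus strand, 504 bases apart and inside no other gene of GENCODE vM21. Mir212 lies on chromosome 11 at 75173388 to 75173478 and Mir132 at 75173682 to 75173747, on the plus strand in an intron of the noncoding gene 1700016P03Rik. Mir31 lies on chromosome 4 at 88910557 to 88910662 in an exon of the long noncoding RNA AL805899.1, and Mir34a at 150068454 to 150068555 of the same chromosome in an exon of Gm37795, a transcript that awaits experimental evidence.

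Libraries held 1936597 to 5230976 counts, and 382 miRNAs passed the filter on low counts. The cells carried lymphocyte markers: miR-150-5p, both arms of miR-142a and miR-342-3p summed to 45567 to 167092 CPM (counts relative to library size, scaled by TMM except where called unscaled), and all 4 were found in each group. Markers of other cells were lower, with 2 myeloid forms at 1.59 to 12.2 CPM, 4 erythroid forms at 37.9 to 156.8, 6 endothelial and stromal forms at 24.2 to 99.4 and 5 epithelial forms at 1287 to 3768. Both TN libraries numbered 2 went against their labels in miR-29a-3p, judged only by the other libraries, since no label sets a level. The library labelled mCre TN replicate 2 had 1.52% of its counts in it, the highest of the 8. The library labelled WT TN replicate 2 had 0.0735%, against 0.0734% in the lowest, mCre MP replicate 1. The other mCre libraries had 0.0734% to 0.162% and the other WT libraries 0.3397% to 1.09%. The log2 changes of miR-221-3p, miR-222-3p and miR-132-3p between MP and TN are therefore also given without these 2 TN libraries. So are the bounds on miR-31-5p and miR-34a-5p and the medians of the lists. The levels and ratios of the members are given by library.

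The 6 members differed widely in abundance. miR-222-3p averaged 310.9 ± 126.4 CPM over the 8 libraries and ranked 81st to 137th in them, and miR-221-3p averaged 193.3 ± 111.9 CPM and ranked 92nd to 133rd (SD, n = 8 each). miR-132-3p averaged 9.28 ± 5.63 CPM, miR-34a-5p 1.83 ± 1.66 and miR-31-5p 1.49 ± 1.58 (SD, n = 8 each). miR-212-3p had 2 reads in all, 1 in the library labelled mCre TN replicate 2 and 1 in WT TN replicate 1; the 6 libraries without a read each allow up to 3 counts, which is 0.574 to 1.55 unscaled CPM. In the order of levels, miR-222-3p and miR-221-3p overlapped in their ranges (71.7 to 468 and 64.8 to 369.8 CPM), as did miR-34a-5p and miR-31-5p, while miR-132-3p lay apart from the pair above it. Such levels describe all cells of a sort together, so fewer cells with a miRNA and less of it per cell cannot be told apart.

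**Figure D1:**
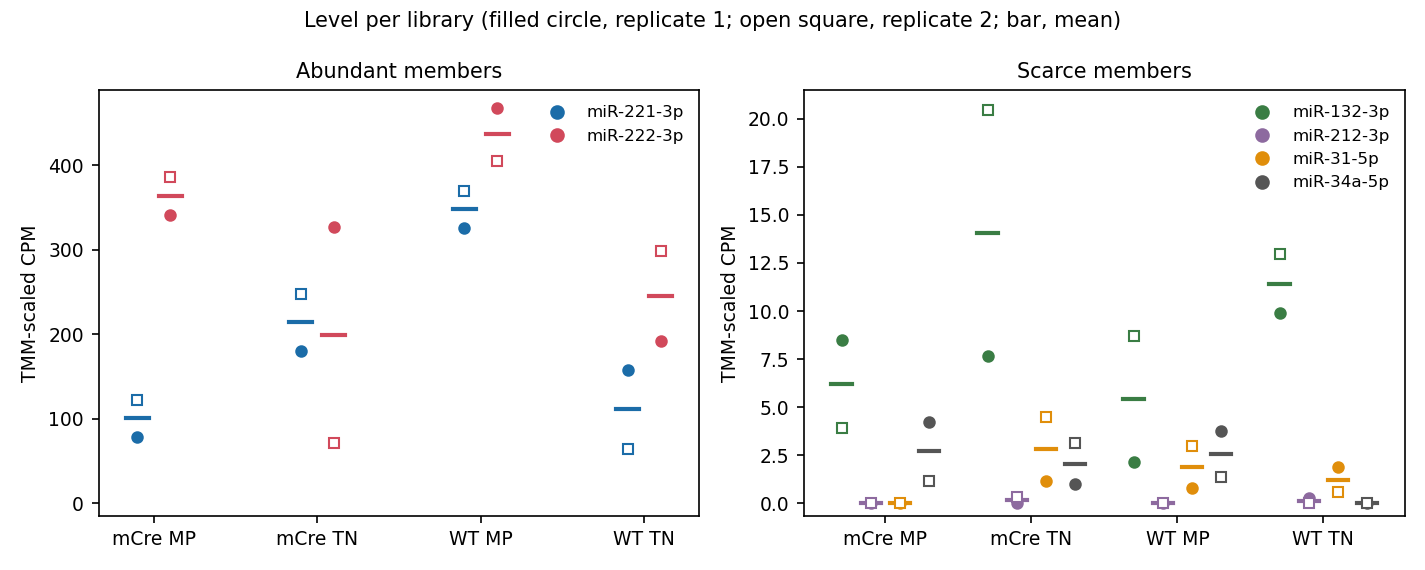
TMM-scaled CPM of each member in the 8 libraries by group (left, miR-221-3p and miR-222-3p; right, the 4 scarcer members); points are libraries and bars are means of 2. miR-222-3p lies at 341 to 468 CPM in MP libraries and 71.7 to 326 in TN libraries, while miR-221-3p is lowest in mCre MP and WT TN.

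Of the 6 members 4 passed the filter, all but miR-212-3p and miR-31-5p, and none of these passed an adjusted p of 0.05 in any of the 6 comparisons, by edgeR's quasi-likelihood test or by DESeq2, which gave no adjusted p for miR-34a-5p in several. After TMM scaling miR-222-3p was higher in every MP library than in every TN library, without reaching the threshold. miR-221-3p, its partner on the same transcript, was higher in MP within WT and lower in MP within mCre.

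miR-222-3p stood at 341 and 386 CPM in mCre MP and at 468 and 405 CPM in WT MP, against 326 and 71.7 CPM in mCre TN and 192 and 298 CPM in WT TN (replicates 1 and 2). All 4 MP libraries thus lay above all 4 TN libraries, as they did for 6.81% of the 382 miRNAs tested, while 4.45% lay lower in all 4 and 11.3% lay apart in either direction. It was the only one of the 6 members so placed. The separation held with RLE factors (lowest MP 346 CPM, highest TN 339), and it was lost without scaling, where mCre MP stood at 300.4 and 323 unscaled CPM, against 375 in mCre TN replicate 1. Across both genotypes its mean was 399.9 ± 52.9 CPM in MP libraries and 221.9 ± 115.7 CPM in TN libraries (SD, n = 4 each), with a log2 fold change of 0.85 ± 0.49 (SE, edgeR adjusted p = 0.554). The background is 2.36% of miRNAs past that threshold, 9 of 382, with 13.1% at an unadjusted p under 0.05 and 7.33% called by DESeq2. The log2 change was 0.51 without both TN libraries numbered 2, at an edgeR adjusted p of 0.402.

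Within the genotypes, the log2 change of miR-222-3p for MP against TN was 0.87 ± 0.71 in mCre (SE, edgeR adjusted p = 0.446) and 0.84 ± 0.71 in WT (SE, edgeR adjusted p = 0.802), and the difference between them was 0.03 ± 1.00 with an unadjusted 95% interval of -2.28 to 2.35. The mCre value rests on the library labelled mCre TN replicate 2, the lowest of the 8: without both TN libraries numbered 2 it was 0.0091, and the WT value 1.08. Between genotypes, mCre against WT, the log2 change was -0.27 ± 0.71 in MP (95% interval -1.90 to 1.37) and -0.30 ± 0.71 in TN (-1.94 to 1.34; SE, edgeR adjusted p = 0.875 and 0.967). In MP both mCre libraries lay below both WT libraries with TMM, as for 37.4% of the 382 miRNAs (27.2% higher, 64.7% either). They overlapped with RLE factors, and lay apart again without scaling (300.4 to 323 against 379 to 526 unscaled CPM). The 95% intervals above also hold changes of more than 2-fold in either direction.

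miR-221-3p stood at 78.9 and 122 CPM in mCre MP, 181 and 247 in mCre TN, 325 and 369.8 in WT MP, and 157 and 64.8 in WT TN. Both mCre MP libraries lay below both WT MP libraries, a separation that 37.4% of the 382 miRNAs showed in this direction, 27.2% in the other and 64.7% in either. The mean was 100.6 ± 30.7 CPM in mCre MP and 347.6 ± 31.5 in WT MP (SD, n = 2 each), and the log2 fold change of mCre against WT was -1.79 ± 0.60 (SE, unadjusted p = 0.0172, edgeR adjusted p = 0.411). edgeR called 0% of miRNAs here, with 41 of 382 (10.7%) at an unadjusted p under 0.05. DESeq2 made 0 calls as well. Without both TN libraries numbered 2, which enter this comparison through the shared estimate of spread, the change was -1.81 with an edgeR adjusted p of 0.0179, and 14.5% of the 433 miRNAs then tested were called. Over the 14 other settings its adjusted p ran from 0.0179 to 0.933.

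Within WT, the mean of miR-221-3p was 347.6 ± 31.5 CPM in MP libraries and 111.1 ± 65.5 CPM in TN libraries (SD, n = 2 each), with a log2 change of 1.64 ± 0.59 (SE, unadjusted p = 0.0244, edgeR adjusted p = 0.447). Within mCre it was 100.6 ± 30.7 CPM in MP libraries and 214.0 ± 47.3 CPM in TN libraries (SD, n = 2 each), with a log2 change of -1.09 ± 0.59 (SE, edgeR adjusted p = 0.289). Neither pair of groups overlapped, as was so for 26.2% of miRNAs in the higher direction in WT (13.4% lower, 39.5% either) and 35.6% in the lower direction in mCre (29.6% higher, 65.2% either). edgeR called 0% of miRNAs in either comparison. In WT an unadjusted p under 0.05 was found for 31 of 382 (8.12%), and in mCre for 82 (21.5%). DESeq2 made 12 calls (3.14%) in WT and 44 (11.5%) in mCre, with no member among them. Without both TN libraries numbered 2 the log2 change was 1.02 in WT and -0.97 in mCre.

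Marker levels also differed between the groups, and only some ran beside miR-221-3p. The summed lymphocyte markers were 45567 to 75818 CPM in mCre MP, 94126 to 167092 in mCre TN, 90527 to 112478 in WT MP and 48338 to 61326 in WT TN, lowest in the groups where miR-221-3p was lowest. Myeloid forms summed to 1.59 to 3.51 CPM in mCre MP and 11.4 to 12.2 in WT MP, endothelial and stromal forms to 38.7 to 49.1 and 69.5 to 99.4, and epithelial forms to 2247 to 2980 and 3271 to 3768. Erythroid forms ran the other way, at 106.7 to 156.8 CPM in mCre MP and 72.7 to 80.4 in WT MP. In mCre TN and WT TN, myeloid forms summed to 6.31 to 10.4 and 5.62 to 7.89 CPM, and endothelial and stromal forms to 42.3 to 53.5 and 24.2 to 47.1. Epithelial forms summed there to 1287 to 1667 and 1471 to 3151, and erythroid forms to 37.9 to 76.6 and 43.9 to 100.8. The highest lymphocyte sum and the lowest epithelial sum were in mCre TN, whereas miR-221-3p was highest in WT MP. The part of these markers in the result was not tested.

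The test of the difference itself gave -2.73 ± 0.83 on the log2 scale for miR-221-3p (mCre minus WT; SE, unadjusted p = 0.0113, edgeR adjusted p = 0.301). In this comparison edgeR called 0% of miRNAs, 54 of 382 (14.1%) passed an unadjusted p of 0.05, and DESeq2 called 16 (4.19%), at an adjusted p of 0.0638 for miR-221-3p. With 1 library at a time left out the difference ran from -3.64 to -2.16. It was -3.64, and past the threshold, only when WT TN replicate 1 was left out. WT TN then rested on the library labelled replicate 2, which went against its label and was lowest of the 8 in miR-221-3p (64.8 CPM). The change over both genotypes, which averages the opposite subset effects, was 0.28 ± 0.68 (SE, edgeR adjusted p = 0.880), and it turned to -0.09 without both TN libraries numbered 2. In TN, mCre against WT gave 0.94 ± 0.58 (SE, edgeR adjusted p = 0.957), with edgeR calling 0% of miRNAs (12 of 382, 3.14%, at an unadjusted p under 0.05) and DESeq2 0. Both mCre TN libraries lay above both WT TN libraries, as for 15.7% of miRNAs (6.81% lower, 22.5% either). The change was 0.19 without both TN libraries numbered 2.

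**Figure D2:**
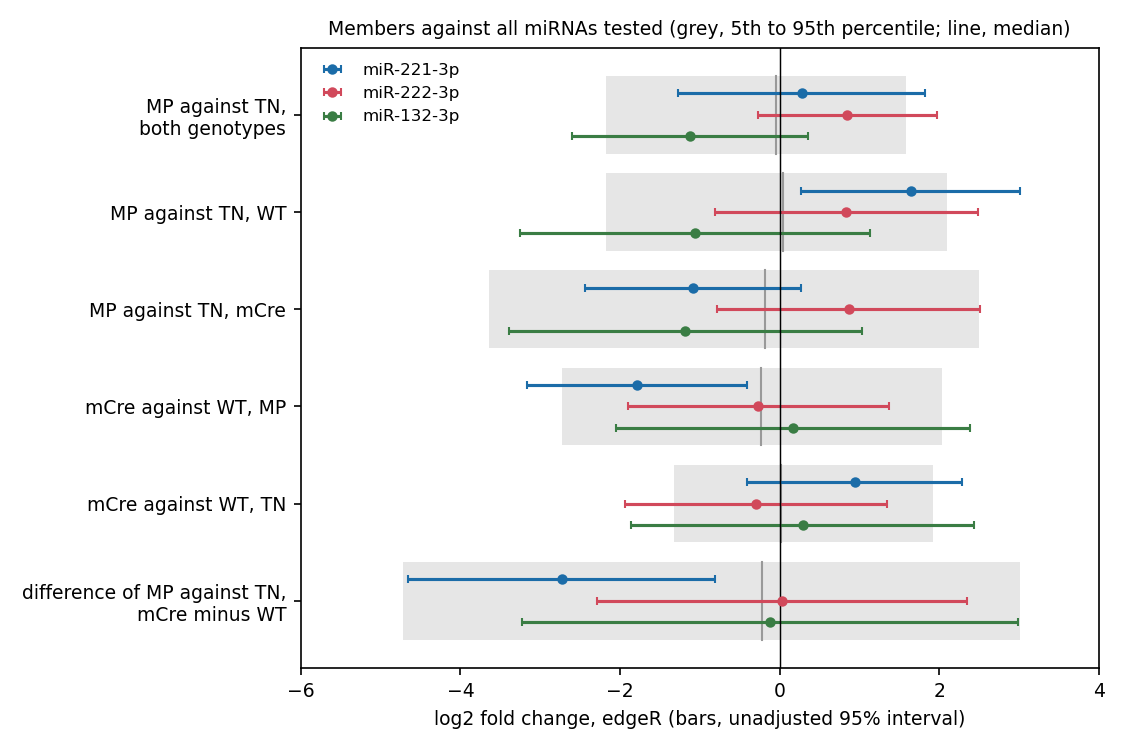
Log2 fold changes of miR-221-3p, miR-222-3p and miR-132-3p in the 6 comparisons (points, with unadjusted 95% intervals), over the 5th to 95th percentile and the median of all 382 miRNAs tested. The point of miR-221-3p moves between 1.64 in WT and -1.09 in mCre for MP against TN, while miR-222-3p stays at 0.84 and 0.87, and all points lie within the grey range.

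The ratio of miR-222-3p to miR-221-3p compares the pair inside each library and needs no scaling. It was 4.32 and 3.15 in mCre MP, 1.81 and 0.290 in mCre TN, 1.44 and 1.10 in WT MP, and 1.22 and 4.60 in WT TN. The exact 95% counting intervals set these apart, at 3.61 to 5.19 and 2.77 to 3.59 in mCre MP and at 1.34 to 1.55 and 1.02 to 1.18 in WT MP. So the ratio was higher in both mCre MP than in both WT MP libraries, where 2 libraries against 2 cannot give an exact permutation p below 0.333. In TN the replicates of a group differed by more than the groups did: the library labelled mCre TN replicate 2 had 207 reads of miR-222-3p and 714 of miR-221-3p, the only library in which miR-221-3p led, and the library labelled WT TN replicate 2 had 529 and 115. MP and TN as wholes did not separate, with mean log2 ratios of 1.10 ± 0.93 across MP libraries and 0.39 ± 1.65 across TN libraries (SD, n = 4 each; two-sided exact permutation p = 0.571, adjusted 0.571 over the 2 pair ratios tested; the smallest p possible is 0.0286).

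The passenger arms of the same hairpins did not follow that ratio. miR-222-5p to miR-221-5p, in counts, was 12 to 40 and 14 to 49 in mCre MP (0.3 and 0.286), 22 to 108 and 6 to 39 in mCre TN (0.204 and 0.154), 17 to 69 and 33 to 104 in WT MP (0.246 and 0.317), and 20 to 54 and 0 to 21 in WT TN. The exact 95% intervals of mCre MP (0.143 to 0.583 and 0.146 to 0.526) and WT MP (0.136 to 0.424 and 0.208 to 0.473) overlapped, where those of the 3p arms did not. miR-221-5p led in all 8 libraries, with 484 reads against 124, whereas miR-222-3p led miR-221-3p in 7 of 8, with 8268 reads against 5528.

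**Figure D3:**
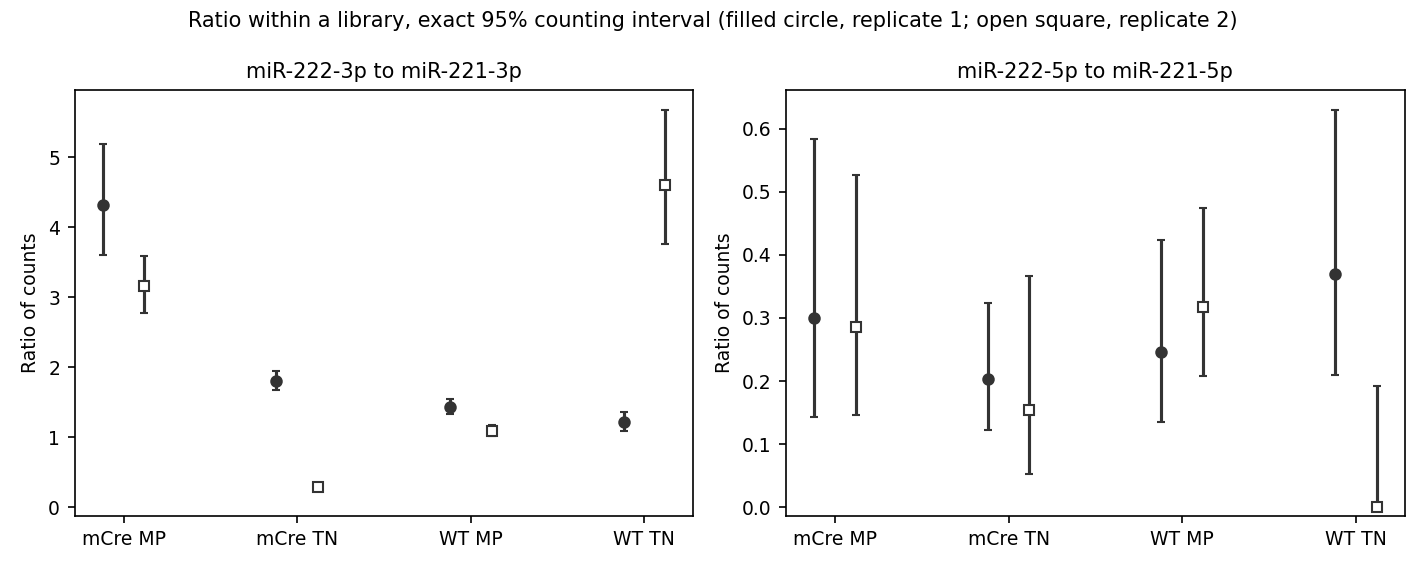
Ratio of counts within each library for the 3p arms (left) and the 5p arms (right) of the miR-222 and miR-221 hairpins, with exact 95% counting intervals; the vertical scales differ. The 3p ratio runs from 0.290 to 4.60, and the 5p ratio from 0 to 0.370 with overlapping intervals for all MP libraries.

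The arms of the miR-221 hairpin differed in proportion between libraries. The 3p to 5p ratio was 3.73 and 6.41 in mCre MP, 10.1 and 18.3 in mCre TN, 17.4 and 13.0 in WT MP, and 10.9 and 5.48 in WT TN. Both mCre MP libraries (exact 95% intervals 2.61 to 5.42 and 4.73 to 8.85) lay below both WT MP libraries (13.7 to 22.6 and 10.7 to 16.1). miR-221-5p itself differed by less than its spread between these groups, at 20.1 ± 1.48 CPM in mCre MP and 23.5 ± 6.86 in WT MP (SD, n = 2 each), a log2 change of -0.22 ± 0.58 (SE, edgeR adjusted p = 0.874). Unscaled, it lay lower in both mCre MP libraries (16.0 to 18.7 CPM) than in both WT MP libraries (20.9 to 26.5 CPM). With TMM, 37.4% of the 382 miRNAs lay apart in this direction and 64.7% in either. Like miR-222-3p, and unlike miR-221-3p, miR-221-5p lay higher in all 4 MP libraries (18.6 to 28.3 CPM) than in all 4 TN libraries (11.8 to 17.9 CPM). So did 6.81% of the 382 miRNAs (4.45% lower, 11.3% either), and the separation was lost without scaling. The log2 change over both genotypes was 0.59 ± 0.40 (SE, edgeR adjusted p = 0.645). miR-222-3p outnumbered miR-222-5p by 34.5 to 102 times in the 7 libraries with a read of both, and the intervals of mCre MP and WT MP overlapped.

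The miR-222-3p to miR-221-3p ratio moved with the miR-29a-3p share of the library. The 3 libraries with the highest ratio, WT TN replicate 2 as labelled and both mCre MP, had 0.0735%, 0.0734% and 0.126% miR-29a-3p, and the lowest ratio fell in the library labelled mCre TN replicate 2, with 1.52%. On log scales Pearson's r was -0.935 and Spearman's rho -0.952 over the 8 libraries, and r was -0.970 without WT MP replicate 2 and the library labelled mCre TN replicate 2. These are descriptions: both values come from the same libraries, and miR-29a-3p belongs to the family that the series title names. The let-7 share moved with the ratio too (r = 0.853 and rho = 0.857 over 8 libraries, r = 0.736 without the 2 farthest), at 63.9% and 60.0% in mCre MP and 69.4% in the library labelled WT TN replicate 2, against 43.4% to 52.0% in the others, while the total count did so less (r = -0.304). The part of either in the ratio was not tested.

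**Figure D4:**
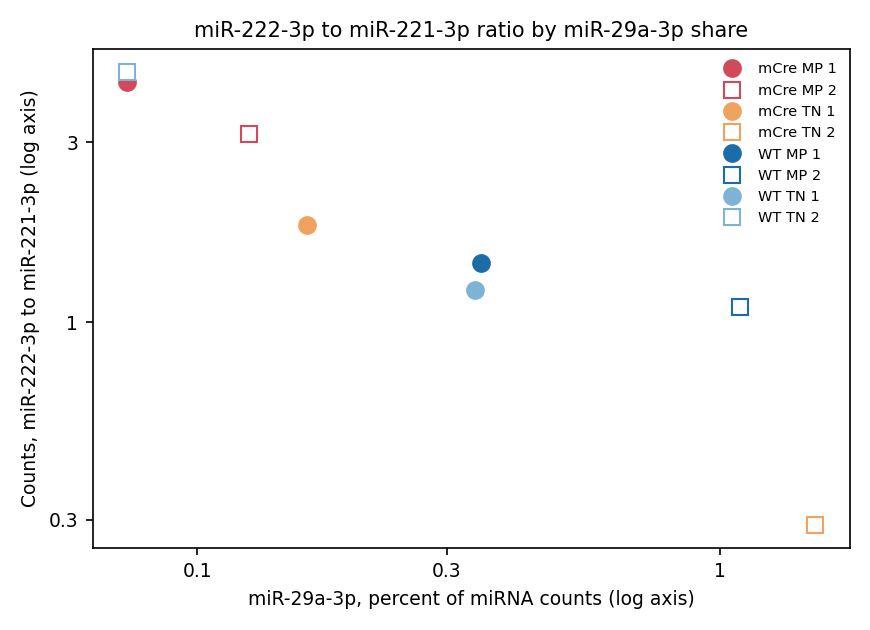
Ratio of miR-222-3p to miR-221-3p counts against the percent of miRNA counts in miR-29a-3p, both on log axes, 1 point per library. The library labelled WT TN replicate 2 (4.60 at 0.0735%) lies beside mCre MP replicate 1 (4.32 at 0.0734%), and the library labelled mCre TN replicate 2 (0.290 at 1.52%) lies at the other end.

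Because both miRNAs carry the seed GCUACAU, their levels were summed, which counts reads with that seed and does not measure its supply in cells. miR-1928, the other name of the table with this seed among the 84.9% that matched a RefSeq sequence, had no reads. The sum was 419 and 508 CPM in mCre MP, 507 and 319 in mCre TN, 793 and 775 in WT MP, and 349 and 363 in WT TN. With TMM, WT MP thus held about the same sum in both libraries, 784.2 ± 12.9 CPM (SD, n = 2), above every other library. WT TN held 356.0 ± 9.59 CPM (SD, n = 2). Unscaled, miR-221-3p and miR-222-3p were both higher in WT MP replicate 1 (365.4 and 525.6 CPM) than in replicate 2 (346.1 and 379.3). The closeness of the sums in WT MP therefore depends on the scaling. The mCre MP sum, 463.7 ± 62.6 CPM, overlapped that of mCre TN, 413.0 ± 132.7 CPM (SD, n = 2 each). With TMM, the libraries labelled WT TN agreed more closely in the sum than in its parts. There miR-221-3p and miR-222-3p differed between libraries in opposite directions, and replicate 2 went against its label in miR-29a-3p. Unscaled, miR-221-3p stood at 194.4 and 59.4 CPM in WT TN replicates 1 and 2, and miR-222-3p at 236.7 and 273.2.

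The miRNAs whose log2 CPM ran most like each of the pair differed. Over the 8 libraries miR-664-3p (r = 0.975), miR-98-3p (0.955) and miR-7a-1-3p (0.947) were closest to miR-221-3p, and miR-7667-5p (0.969), miR-130b-5p (0.968) and miR-340-3p (0.934) to miR-222-3p, among 382 miRNAs. miR-664-3p, the closest to miR-221-3p, stood at 22.2 and 37.4 CPM in mCre MP, 73.1 and 122.0 in mCre TN, 120.2 and 122.4 in WT MP, and 40.4 and 15.2 in WT TN. Between miR-221-3p and miR-222-3p themselves r was -0.06. For the scarcer members the closest were less alike, at most 0.795 for miR-132-3p (miR-1a-3p, miR-351-5p and miR-125a-5p) and 0.849 for miR-34a-5p (miR-21a-3p, miR-1934-5p and miR-3473b). All points share libraries, scaling and depth, and the closest of 382 is high by choice.

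miR-132-3p averaged lower in MP than in TN, at 8.47 and 3.90 CPM in mCre MP and 2.16 and 8.72 in WT MP, against 7.64 and 20.4 in mCre TN and 9.91 and 13.0 in WT TN. The subsets overlapped only in mCre TN replicate 1, which lay below mCre MP replicate 1 and WT MP replicate 2. Without scaling they did not overlap, with 2.43 to 8.16 unscaled CPM in MP and 8.79 to 20.2 in TN, as for 5.5% of the 382 miRNAs in this direction and 11.3% in either under that setting. Its mean was 5.81 ± 3.29 CPM in MP libraries and 12.7 ± 5.58 CPM in TN libraries (SD, n = 4 each), with a log2 change of -1.12 ± 0.65 (SE, edgeR adjusted p = 0.554). In reads this was 66 in MP and 165 in TN, a depth-corrected ratio of 0.422 (exact 95% interval 0.313 to 0.565, from counting alone). The log2 change was -1.18 ± 0.96 in mCre (SE, edgeR adjusted p = 0.441) and -1.06 ± 0.95 in WT (SE, edgeR adjusted p = 0.802), and their difference -0.12 ± 1.35 (95% interval -3.23 to 2.99). Genotype changes were 0.17 ± 0.96 in MP and 0.29 ± 0.93 in TN (SE, edgeR adjusted p = 0.944 and 0.967), with 95% intervals of -2.05 to 2.39 and -1.86 to 2.44. Without both TN libraries numbered 2 the TN mean was 8.77 ± 1.60 CPM (SD, n = 2), and the log2 change for MP against TN was -0.76 over both genotypes, -0.51 in mCre and -1.0 in WT.

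Reads of the miR-212 hairpin came mostly from the arm that is not the member. miR-212-5p had 57 reads against 2 of miR-212-3p, and led it in 7 of 8 libraries; WT MP replicate 1 had none of either. miR-212-5p was 3.71 and 0.390 CPM in mCre MP, 3.49 and 1.39 in mCre TN, 0 and 0.273 in WT MP, and 3.75 and 5.07 in WT TN. It was scarcest in WT MP, with 1 read in that group against 23 in WT TN, 9 of them in the library labelled replicate 2. edgeR gave an unadjusted p of 0.0182 and an adjusted p of 0.435. An unadjusted p under 0.05 was found for 8.12% of the 382 miRNAs there. Only TN libraries, mCre TN replicate 1 and both WT TN, brought miR-212-5p past the filter, so a lower level in MP was favoured in advance. These values are descriptions and no support for a subset difference. miR-132-3p led miR-212-3p in all 8 libraries, with 231 reads in all, and its own partner miR-132-5p had 36 reads, in mCre MP replicate 2 (5), mCre TN replicate 1 (21) and WT TN replicate 1 (10). With so few reads of miR-212-3p the log2 ratio of the pair depended on the 0.5 counts added: MP minus TN was -0.63 (two-sided exact permutation p = 0.314, adjusted 0.571) and -1.03 with 5 counts added. Their seed, AACAGUC, was carried by no other name of the table that matched a RefSeq sequence.

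miR-31-5p had 42 reads, too few for the filter. They numbered 0 and 0 in mCre MP, 7 and 13 in mCre TN, 3 and 11 in WT MP, and 7 and 1 in WT TN. No read fell in either mCre MP library, which allows up to 0.577 unscaled CPM over the group. At that limit the mCre MP level was 4.25-fold lower than in mCre TN and 3.36-fold lower than in WT MP. These bounds set 3 counts for the whole empty group, are unscaled and take the reads of the other group as exact. They cover counting error of the empty group only, and both rest on single libraries. Of the 20 reads in mCre TN, 13 were in the library labelled replicate 2, without which the first bound was 2.32-fold; it ran from 1.75 to 7.71 with 1 library of either group left out, lowest without mCre MP replicate 2. Of the 14 reads in WT MP, 11 were in replicate 2, and the 3 that remain without it allow no bound; with any other library of these groups left out the second ran from 1.38, without mCre MP replicate 2, to 4.87. In a fit without the filter, mCre against WT in MP had an edgeR adjusted p of 0.395 and MP against TN in mCre 0.178. In WT the counts of MP and TN, 14 and 8, had a depth-corrected ratio of 1.20 (exact 95% interval 0.471 to 3.31), and over both genotypes 14 reads in MP and 28 in TN had one of 0.528 (0.257 to 1.04). miR-31-3p had no read in any library.

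miR-34a-5p had 45 reads and passed the filter through 2 MP libraries, mCre MP replicate 1 and WT MP replicate 1, which alone reached its 3.29 unscaled CPM. Its reads numbered 8 and 3 in mCre MP, 6 and 9 in mCre TN, 14 and 5 in WT MP, and 0 and 0 in WT TN. WT TN was the group without a read, which allows up to 0.605 unscaled CPM. At that limit WT MP was 4.35-fold higher than WT TN (edgeR adjusted p = 0.447), and mCre TN 3.04-fold higher than WT TN (edgeR adjusted p = 0.957). Again 3 counts were set for the whole empty group, and the reads of the other group were taken as exact and unscaled. Of the 19 reads in WT MP, 14 were in replicate 1, without which the first bound was 2.11-fold; it was 2.65 when the library labelled WT TN replicate 2 was left out, and 1.70 when WT TN replicate 1 was. The second rests on the doubted libraries, since 9 of the 15 reads in mCre TN were in the one labelled replicate 2: without both TN libraries numbered 2 it was 1.16-fold, and without WT TN replicate 1 it was 1.19-fold. In mCre, 11 reads in MP and 15 in TN gave a depth-corrected ratio of 1.15 (exact 95% interval 0.478 to 2.68), a range that also holds a 2-fold difference either way. Over both genotypes, 30 reads in MP and 15 in TN gave 2.11 (1.10 to 4.22, from counting alone). The log2 change was 1.93 ± 1.23 (SE, edgeR adjusted p = 0.626). Because only MP libraries brought miR-34a-5p past the filter, a higher level in MP was favoured in advance. These values are therefore descriptions and no support for a subset difference. The seed GGCAGUG was also carried by miR-449a-5p, with 19 reads in 5 libraries, by miR-449c-5p, with 3 reads, and by miR-34b-5p, with none; miR-34a-3p had no read.

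For context, lists of 13 other activation miRNAs and 9 miRNAs high in resting lymphocytes were followed, and all were tested. The lists were chosen with earlier results of these data known, so their counts and medians are descriptions and no independent support. The 13 also include both arms of miR-155 and of miR-21a, which are not independent of each other. In MP against TN over both genotypes, 2 of the 13 were called higher and none lower by edgeR, against 2.36% of all miRNAs called: miR-146a-5p, a brake on NF-kB signalling, at a log2 change of 2.61 ± 0.37 (SE, edgeR adjusted p = 0.0137), and miR-21a-5p at 1.87 ± 0.36 (SE, edgeR adjusted p = 0.0392). Of the 13, 10 had a change above 0, against 49.5% of all 382 miRNAs, and their median was 1.5, against -0.04 over all. Of the 9 resting miRNAs, 1 was called lower, miR-181a-5p, which tunes T cell receptor sensitivity, at -2.98 ± 0.61 (SE, edgeR adjusted p = 0.0423), 2 were above 0 and the median was -0.40. These calls were not stable when 1 library at a time was left out, which leaves 1 library in a group. miR-146a-5p lost its call in 5 of 8 such fits, and miR-21a-5p and miR-181a-5p each lost theirs in 7 of 8. Both of the latter passed only where the library labelled WT TN replicate 2 was left out. With both TN libraries numbered 2 left out, 9 of the 13 were above 0 (median 1.20) and 3 of the 9 (median -0.54). The median over all miRNAs was then -0.14.

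In the other comparisons edgeR called no listed miRNA, on all 8 libraries with the filter. By DESeq2, 3 of the 13 were called higher and 1 lower in mCre, and 4 higher in WT. Of the 9, DESeq2 called 1 higher (miR-139-5p) and 3 lower in mCre, 1 lower in WT and 1 lower for the difference. The shares called by DESeq2 over all 382 miRNAs were 11.5% in mCre, 3.14% in WT and 4.19% for the difference. In mCre, 7 of 13 activation miRNAs (median 0.22) and 2 of 9 resting miRNAs (median -1.05) were above 0 for MP against TN, against 45.3% of all (median -0.18). In WT these were 12 of 13 (median 1.34) and 6 of 9 (median 0.94), against 52.9% (median 0.05). For mCre against WT in MP they were 4 of 13 (median -0.14) and 0 of 9 (median -0.96), against 42.1% (median -0.23), and in TN 8 of 13 (median 0.41) and 5 of 9 (median 0.27), against 51.8% (median 0.02). For the difference between genotypes they were 4 of 13 (median -0.55) and 3 of 9 (median -1.27), against 42.7% (median -0.22). Without both TN libraries numbered 2, activation and resting medians were 0.52 and -0.72 in mCre, against -0.30 over all. They were 1.03 and 0.19 in WT, against 0.14. For mCre against WT they were -0.17 and -0.999 in MP, against -0.24, and 0.16 and -0.46 in TN, against 0.06. For the difference they were -0.38 and -0.47, against -0.24. The resting median in TN thus changed sign, with 2 of 9 above 0.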

How the data were processed

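The authors deposited 1 table of expected counts with 2128 rows and 1978 mature names in 8 columns, whose names give the replicate, genotype and subset of 1 title each. The build was mm10, per the submitters' processing notes; for aligner, counter and miRNA annotation: not given in the sources used here. Per the labels' protocols, libraries were made with a NEBNext small RNA kit and size-selected, and no molecular identifiers are named, so intervals cover counting error only. Rows of 1 name were summed and rounded; all 96 values of the 6 members and their partner arms were whole as deposited.

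filterByExpr (minimum count 10, minimum total 15) left 382 miRNAs, and TMM scaled the libraries. edgeR 4.0.16 in R 4.3.3 gave the quasi-likelihood F test (robust) with Benjamini-Hochberg adjusted p-values across every miRNA tested. A fit of the 4 groups (4 residual degrees of freedom) served 5 comparisons, and an additive fit of subset and genotype (5) served MP against TN over both genotypes. SE is the absolute log2 fold change over the square root of F, and its 95% interval is unadjusted. Alternatives were RLE factors, total counts, no filter, DESeq2 1.42.0, the replicate number as a block, and libraries left out. Log2 CPM for correlations used a prior count of 2. Ratios of counts have exact 95% intervals, from scipy 1.17.1. The fits were tested on simulated data.

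The named miRNAs are the 6 members, their partner arms, names with the same seed, the 3 most correlated miRNAs per tested member, and lists of activation and resting miRNAs. Members and lists were chosen with earlier results of these data known.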

Additional observations from a re-analysis of the deposited data

How the results depend on the processing

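The direction of each member, tested in 6 comparisons, and the number of miRNAs past the threshold were recomputed under 14 settings; of 336 member values 299 kept direction and side of the threshold, 35 reversed and 2 (miR-221-3p, given above) passed it. Reversals were in small changes. The cause was not tested for any of them. Without both TN libraries numbered 2, the log2 change of miR-221-3p for MP against TN over both genotypes was -0.086, of miR-34a-5p for mCre against WT in MP -0.079, of miR-222-3p and miR-132-3p for mCre against WT in TN 0.76 and -0.38, and of their differences between genotypes -1.07 and 0.50. That of miR-34a-5p for mCre against WT in MP was -0.25 with total counts and -0.068 with no filter. The difference of miR-222-3p was -0.35 with total counts and -0.17 with no filter, and that of miR-132-3p 0.10 with RLE factors, 0.10 with DESeq2 and 0.30 with the replicate block. With 1 library left out, ranges were -0.34 to 0.69 (miR-221-3p, MP against TN over both genotypes), -0.68 to 1.19 (miR-34a-5p, MP against TN in mCre), -0.59 to 1.46 and -1.08 to 0.87 (miR-132-3p and miR-34a-5p, mCre against WT in MP), -1.77 to 0.32 and -0.66 to 0.84 (miR-222-3p and miR-132-3p, mCre against WT in TN), and -0.64 to 1.41 and -0.90 to 1.26 (their differences); the log2 ratio of miR-222-3p to miR-221-3p, MP minus TN, ran from -0.0070, without the library labelled mCre TN replicate 2, to 1.32.

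Calls for MP against TN over both genotypes numbered 9, and 19 with no filter, 28 with DESeq2, 2 with the replicate block, 49 without both TN libraries numbered 2, and 0 to 41 with 1 library left out. In WT they numbered 0, and 6, 12 and 14 with no filter, DESeq2 and without both TN libraries numbered 2 (0 to 6 with 1 left out); in mCre 0, and 24, 44 and 30 (0 to 56). For mCre against WT they were 0, and 63 in MP without both TN libraries numbered 2 and 1 in TN with no filter (0 to 0 with 1 left out, in each). For the difference they were 0, and 10 with no filter, 16 with DESeq2 and 0 to 68 with 1 left out. Total counts moved the median of all miRNAs for mCre against WT in MP to -0.48, against -0.23 with TMM, and for MP against TN in mCre to -0.49, against -0.18. Differences between replicates 1 and 2 correlated at -0.32 to 0.41 between groups. With 2 libraries per group, and TN libraries numbered 2 that went against their labels, this neither shows nor excludes that the numbers pair the libraries. The replicate block made no member pass. The bounds on miR-31-5p and miR-34a-5p without single libraries were added after seeing the data, and 18 of 19 such bounds moved by over 1.5 times. The calls and medians of the lists in each setting were also added then. Depth limits miR-212-3p, miR-31-5p and miR-34a-5p, at 2, 42 and 45 reads.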
